A study of Mus musculus with 12 samples.

Results

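The family of ATP-binding cassette (ABC) transporter genes was taken from a table of gene expression in mouse liver by the form of the symbol: Abc, a subfamily letter from a to g, and a number, with Abcb11 and Abcb4 left out. The pattern matched 50 symbols, and 48 members of 23849 symbols in the table remained. They fall into 7 subfamilies, with 16 members in ABCA, 8 in ABCB, 10 in ABCC, 4 in ABCD, 1 in ABCE, 3 in ABCF and 6 in ABCG. A minimum mean of 1 FPKM (fragments mapped to a gene, scaled to its length and to the depth of the library) over the 12 libraries was passed by 27 of the 48, which were tested, and missed by 21. Of all symbols, 9806 passed it.

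Liver RNA came from male mice on a C57BL/6J background that were all fed HFD, in 4 groups of 3. Control mice were given vehicle (drinking water) and treated mice Policaptil Gel Retard, a mix of fibers that swells to a gel and that the labels call Libramed, in both cases by gavage once a day over the last 2 weeks. Livers were taken at ZT0, when the lights went on, or at ZT12, when they went off and the active phase of the mouse began. Policaptil Gel Retard, shortened to Policaptil below, was given shortly before the lights went off. The age of the animals is not given in the sources used here, and livers of mice on normal diet were not analysed here. The labels describe the 3 libraries of a group as biological replicates. RNA was taken from whole tissue, in which fewer cells of a type and less RNA per cell cannot be told apart.

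ABC proteins bind and split ATP and, in most subfamilies, use that energy to carry a substrate across a membrane. Full transporters hold the whole machine in a single chain, and half-transporters must pair, as ABCG5 does with ABCG8. In hepatocytes they export cholesterol, bilirubin conjugates, drugs and urate into bile or blood, bring fatty acyl-CoA into peroxisomes and serve mitochondrial iron and haem handling. The ABCE and ABCF proteins keep the ATPase domains but cross no membrane, and they act on the ribosome.

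The relative depth of the libraries was estimated from genes so low that single reads set their values. Against vehicle ZT0 replicate 1 it ran from 0.702 in Policaptil ZT12 replicate 2 to 1.26 in vehicle ZT12 replicate 2. The absolute depth is unknown. Hepatocyte markers were high throughout (7 genes, summed level 11061 to 14123 FPKM in vehicle at ZT0 and 12856 to 15481 in Policaptil at ZT12). Most clock genes moved as the time labels say, with 7 of 8 evening genes higher at ZT12 over both treatments, beside 21.7% of all genes. Of 4 morning genes tested 3 were lower, beside 19.3% of all genes, but 1 was higher. Policaptil ZT12 replicate 3 held RNA of skeletal muscle, with Acta1 at 16.4, Ckm at 10.4 and Myh4 at 4.55 FPKM, while the other 11 libraries held at most 0.00991 FPKM of any of these. Without this library, 9 in place of 11 of the tested members described below were called for time in Policaptil and 13 in place of 15 over both treatments.

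The members covered a wide range of levels. Of the 27 tested, 17 had a mean of 10 FPKM or more and 10 lay between 1 and 10 FPKM. Abcd3, which encodes PMP70, the abundant half-transporter of the peroxisomal membrane, was highest with a mean of 182 FPKM. Next in order were Abcc6 (61.1), which mediates release of ATP from hepatocytes, and Abcc2 (54.4), the canalicular exporter of bilirubin glucuronide. Abcg5 (42.5), Abcg2 (38.5), Abcc3 (34.1), Abcb6 (33.3) and Abcg8 (28.5) followed. The libraries of Abcc6 (49.3 to 71.6 FPKM) and Abcc2 (38.3 to 70.7) overlapped, and so did those of Abcg5 (22.6 to 66.8) and Abcg2 (22.9 to 59.3), while the lowest Abcd3 library (125) was above every library of any other member.

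By subfamily, the 4 ABCD members were all tested and spanned 1.87 to 181.6 FPKM. The 3 ABCF members (14.7 to 24.6 FPKM) and Abce1 (15.7 FPKM) lay close together. Of ABCA 7 of 16 were tested, led by Abca6 (18.9 FPKM), of ABCB 4 of 8, of ABCC 5 of 10 and of ABCG 3 of 6. ABCA was thus the subfamily with the most members under the minimum.

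**Figure D1:**
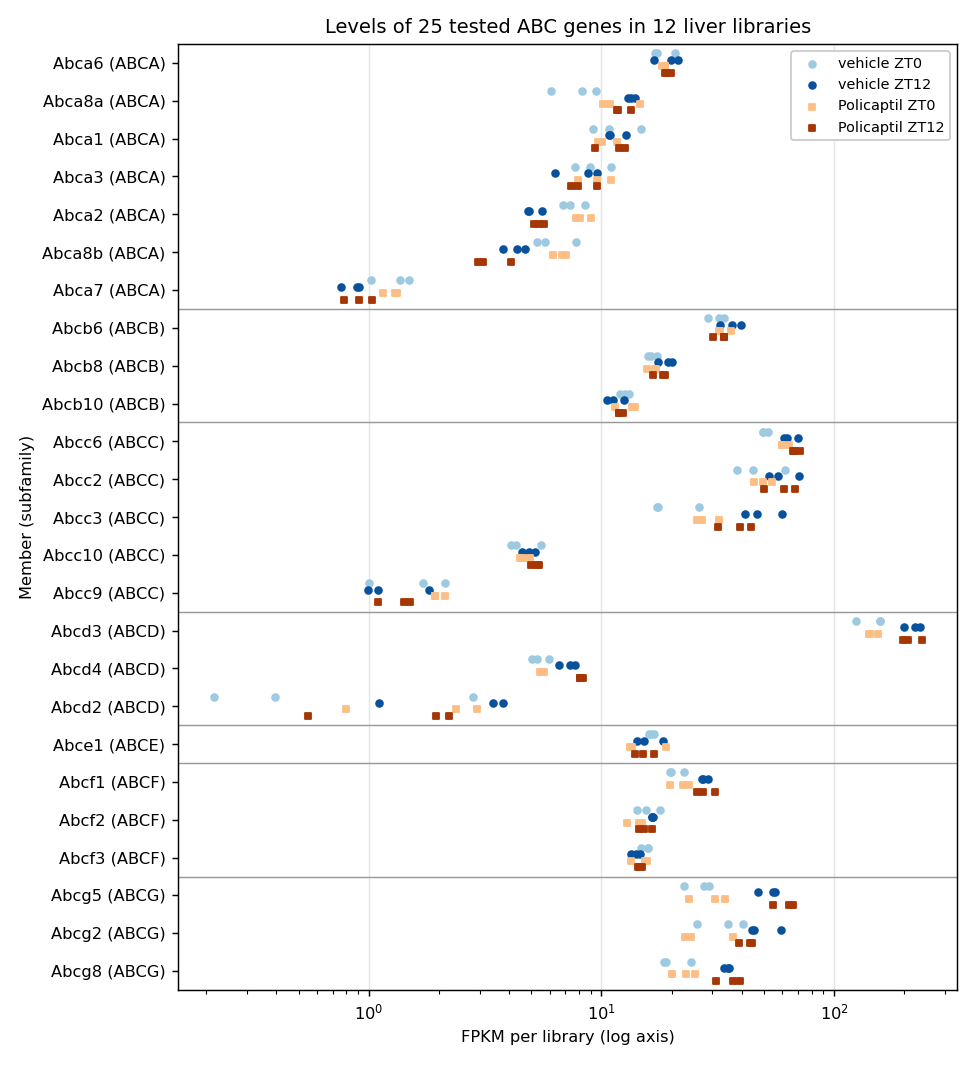
Level of 25 of the 27 tested members in the 12 libraries, in FPKM on a log axis, ordered within subfamilies by mean, with 1 point per library, circles for vehicle and squares for Policaptil, light for ZT0 and dark for ZT12. Abcd3 stands apart at the right, and Abcd2 spreads over more than a factor of 10.

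The design asks first how the family differed between the end (ZT0) and the beginning (ZT12) of the active phase. Levels were compared as log2(FPKM + 1) with limma, a scale on which the change of low genes is understated, and members with p under 0.05, the threshold of the study, are called higher or lower. Over both treatments 15 of the 27 tested were called, beside 41.0% of all genes tested. Of these, 11 were higher at ZT12 (background 21.7%) and 4 were lower (background 19.3%). With Benjamini-Hochberg adjustment over all genes 11 of the 27 had an adjusted p under 0.05 (background 29.7%).

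In vehicle-treated mice 13 of the 27 were called (background 27.4%), 10 of them higher at ZT12 (background 14.4%) and 3 lower (background 13.0%), and 8 passed the adjustment (background 10.4%). With Policaptil 11 were called (background 29.2%), 7 higher (background 15.7%) and 4 lower (background 13.4%), and 6 passed the adjustment (background 12.4%). The share of higher members was above the background in both, while the share of lower members was close to it. The ZT0 and ZT12 libraries did not overlap for 7 members (Abcg5, Abcg8, Abcd3, Abcd4, Abcf1, Abca2 and Abca8b), beside 13.3% of all genes tested. The median log2 fold change of the 27 was 0.19 with vehicle and 0.06 with Policaptil, beside 0.01 in both for all genes.

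Summed over the 48 members, the family held 564 ± 34.5 FPKM (SD, n = 3) at ZT0 and 765 ± 9.53 at ZT12 in vehicle, and 589.6 ± 19.7 and 749 ± 14.3 in Policaptil. All 6 ZT12 libraries were above all 6 ZT0 libraries. The sum over all genes of the table also rose, from 671406 to 702638 FPKM in vehicle and from 671169 to 732783 in Policaptil. As a share of that sum the family went from 0.0840 ± 0.00655% to 0.109 ± 0.00174% in vehicle and from 0.0879 ± 0.00311% to 0.102 ± 0.00479% in Policaptil. Abcd3 alone was between 23.5% and 32.5% of the family sum in every library.

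**Figure D2:**
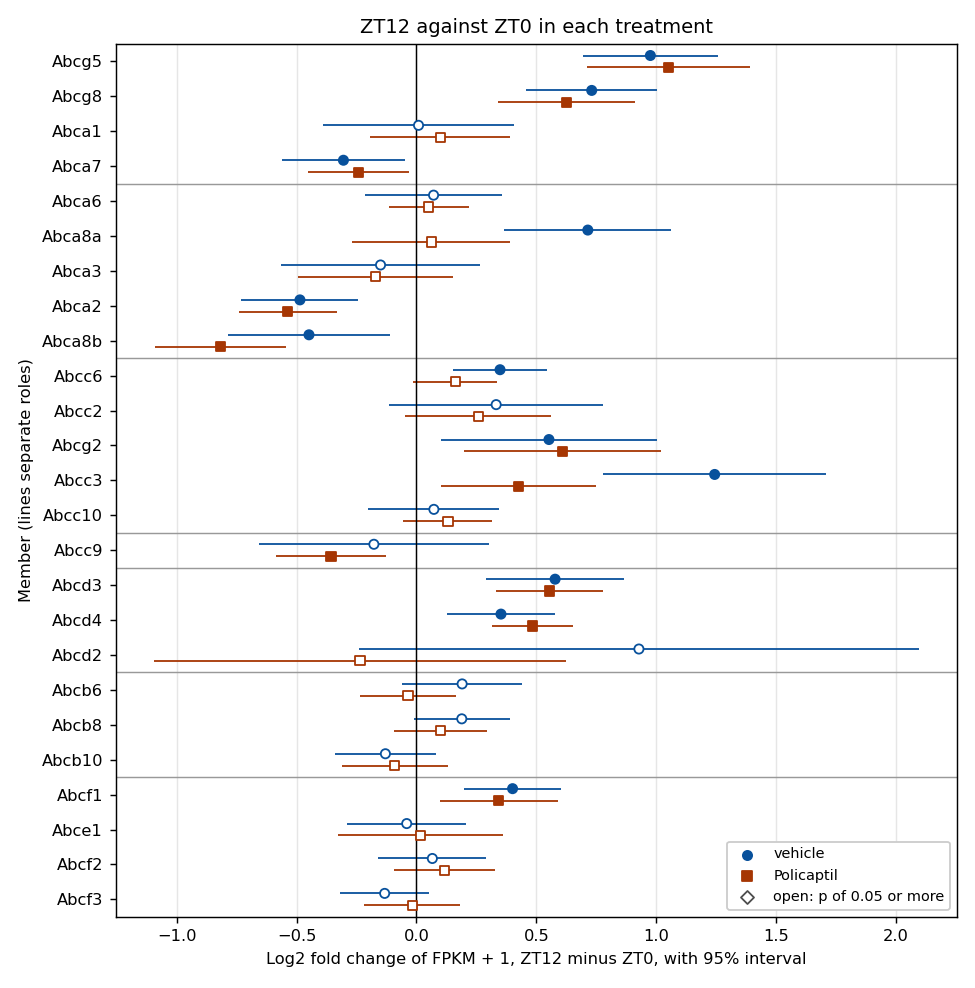
Log2 fold change of FPKM + 1 from ZT0 to ZT12 for 25 of the 27 tested members, in vehicle (blue circles) and in Policaptil (brown squares), with 95% intervals from limma, filled where p was under 0.05, and lines between roles. Abcg5, Abcg8, Abcd3 and Abcg2 lie to the right in both treatments, Abca2 and Abca8b to the left, and Abca8a and Abcc3 differ most in position between treatments among the filled points.

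Among the genes of sterol and phospholipid efflux, Abcg5 and Abcg8 rose together at ZT12. Their products form the heterodimer that exports cholesterol and plant sterols into bile. Abcg5 (chr17:84658234-84683011, minus strand) was at 28.9, 27.5 and 22.6 FPKM in the vehicle ZT0 libraries and 56.0, 54.6 and 47.2 at ZT12, and at 30.7, 23.8 and 34.0 and then 54.6, 64.0 and 66.8 with Policaptil. Every ZT12 library was above every ZT0 library. The ZT12 mean was 2.00 times the ZT0 mean in vehicle and 2.10 times in Policaptil, with a log2 fold change of 1.01 ± 0.10 (SE) over both treatments (limma adjusted p = 2.07e-05). No other member had a smaller p for time.

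Abcg8 (chr17:84676302-84700333, plus strand) was at 18.6, 24.4 and 18.9 FPKM at ZT0 and 35.4, 34.8 and 33.5 at ZT12 in vehicle. The corresponding values with Policaptil were 23.0, 20.2 and 25.2 FPKM and 31.0, 36.9 and 39.6. Again the times did not overlap, and the log2 fold change was 0.68 ± 0.08 (SE, limma adjusted p = 1.35e-04). Within libraries the ratio of Abcg5 to Abcg8 was 1.29 ± 0.229 at ZT0 and 1.52 ± 0.0957 at ZT12 in vehicle, and 1.29 ± 0.0925 and 1.73 ± 0.0351 in Policaptil. The mean ratio was higher at ZT12 in both treatments, though 1 vehicle ZT0 library (1.56) lay among the ZT12 libraries. The ratio is given as a description only.

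RefSeq gives Abcg8 2 starts, and from the one at 84683121 the genes lie head to head, while the other, at 84676302, lies within Abcg5. Between the start of Abcg5 at position 84683011 and the nearer Abcg8 start at 84683121 are 109 bases (GRCm38.p6, chr17:84683012-84683120), shown on the plus strand because both genes of the pair moved with time and read outwards from it. None of the motifs named at the end of the report lies in this span, so no base is in capitals.
Abcg5-Abcg8: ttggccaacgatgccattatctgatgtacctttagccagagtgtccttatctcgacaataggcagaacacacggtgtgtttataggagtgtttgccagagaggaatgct
The exons of the pair overlap by 82 bases on opposite strands in GENCODE vM21. The methods describe a stranded protocol and the labels a kit that does not mark strand, so reads from these bases are uncertain.

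Abca7 (chr10), a phospholipid transporter known from phagocytes, was the lowest tested member (mean 1.076 FPKM) and was lower at ZT12. In vehicle it was at 1.49, 1.37 and 1.02 FPKM at ZT0 and 0.885, 0.761 and 0.905 at ZT12, and in Policaptil at 1.29, 1.32 and 1.15 and 0.911, 1.03 and 0.782. The times did not overlap within either treatment, and the log2 fold change over both was −0.27 ± 0.07 (SE, limma adjusted p = 0.00922). Within single treatments the call ended without 1 of several libraries: vehicle ZT0 replicate 1 or 2 or ZT12 replicate 2 (log2 fold change −0.28 to −0.24), and Policaptil ZT0 replicate 1 or 2 or ZT12 replicate 1 or 3 (−0.24 to −0.19). The version of Cyber-T described with the treatment results, the test used by the study, called Abca7 in neither treatment alone. Abca1, which loads cholesterol and phospholipid onto apolipoprotein A-I, had a log2 fold change of 0.05 ± 0.11 (SE) with a 95% interval of −0.18 to 0.29, and its libraries overlapped. Abcg1, the partner of sterol export to HDL, was under the minimum with a mean of 0.381 FPKM.

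The other lipid-handling ABCA members held falls, a rise and no call. Abca2 (chr2:25428703-25448540, plus strand), a transporter of late endosomes and lysosomes, fell at ZT12. It was at 7.31, 6.85 and 8.50 FPKM at ZT0 and 4.85, 5.57 and 4.87 at ZT12 in vehicle, and at 8.09, 7.78 and 9.04 and 5.12, 5.40 and 5.68 in Policaptil. All ZT12 libraries were below all ZT0 libraries. The ZT12 mean was 0.662 times the ZT0 mean, and the log2 fold change of −0.51 ± 0.06 (SE) had a limma adjusted p of 1.17e-04, the strongest of the falls by p.

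The 250 bases before the RefSeq start of Abca2 (GRCm38.p6, chr2:25428349-25428598, plus strand) are shown because this gene had the smallest p among the members that fell. Their GC content was 63.2%, against a median of 52.4% over 32851 windows, and they hold none of the motifs.
Abca2: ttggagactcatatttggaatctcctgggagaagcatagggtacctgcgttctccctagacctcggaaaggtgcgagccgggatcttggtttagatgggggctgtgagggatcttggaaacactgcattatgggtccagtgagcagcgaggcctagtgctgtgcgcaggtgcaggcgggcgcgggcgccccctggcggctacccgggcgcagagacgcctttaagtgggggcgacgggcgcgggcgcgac

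Abca8a and Abca8b lie side by side in a cluster of 5 members on chromosome 11, with Abca9, Abca6 and Abca5. Both code for full transporters of lipids whose liver role is not settled. The pair moved in opposite directions. Abca8b (chr11:109932190-109995845, minus strand) was at 5.29, 5.72 and 7.73 FPKM at ZT0 and 4.70, 3.79 and 4.32 at ZT12 in vehicle, and at 6.19, 6.77 and 7.01 and then 4.07, 3.08 and 2.95 in Policaptil. Its times did not overlap, and the log2 fold change over both treatments was −0.63 ± 0.11 (SE, limma adjusted p = 8.99e-04). Without vehicle ZT12 replicate 2 the fall in vehicle alone was no longer called (log2 fold change −0.38 in place of −0.45).

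Abca8a (chr11:110025634-110095978, minus strand) was at 6.04, 8.28 and 9.44 FPKM at ZT0 in vehicle and at 13.4, 13.0 and 13.9 at ZT12, a log2 fold change of 0.71 ± 0.15 (SE, limma adjusted p = 0.0298). With Policaptil it was at 10.1, 10.9 and 14.7 FPKM at ZT0 and 11.7, 11.8 and 13.4 at ZT12, where the times overlapped and the log2 fold change was 0.06 ± 0.14. The rise was thus called in vehicle and not in Policaptil, and the test of that difference is given with the treatment results. Over both treatments the log2 fold change was 0.39 ± 0.14 with a limma adjusted p of 0.0531.

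Within libraries the ratio of Abca8a to Abca8b went from 1.27 ± 0.157 at ZT0 to 3.17 ± 0.292 at ZT12 in vehicle and from 1.78 ± 0.275 to 3.75 ± 0.841 in Policaptil. The lowest ZT12 library (2.86) was above the highest ZT0 library (2.09). The mean ratio was higher with Policaptil at either time. This pair was singled out after its values were seen, so the ratio is a description and no p-value is read for it. No 100-base window of their exons was shared between them.

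The 250 bases before the RefSeq start of each gene (GRCm38.p6, minus strand of chromosome 11, chr11:110095938-110096187 for Abca8a and chr11:109995846-109996095 for Abca8b) are shown because neighbours of like kind moved apart. The capitals mark an E-box (CACGTG), the element that clock factors such as BMAL1 bind, whose first base lies 136 bases before the start of Abca8a.
Abca8a: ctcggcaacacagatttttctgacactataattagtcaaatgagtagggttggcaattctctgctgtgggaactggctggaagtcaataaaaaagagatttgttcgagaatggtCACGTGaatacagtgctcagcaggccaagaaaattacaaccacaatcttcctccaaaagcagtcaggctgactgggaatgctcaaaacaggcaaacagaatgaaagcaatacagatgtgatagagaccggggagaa
Abca8b: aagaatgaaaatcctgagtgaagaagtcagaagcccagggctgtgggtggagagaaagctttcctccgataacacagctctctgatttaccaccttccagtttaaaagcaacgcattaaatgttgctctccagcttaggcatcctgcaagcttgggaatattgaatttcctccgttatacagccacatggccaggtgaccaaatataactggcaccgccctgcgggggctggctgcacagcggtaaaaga
The E-box of Abca8b lies in the 50 bases after its start and so outside the stretch shown. Both members hold the motif within the 300-base window and changed in opposite directions.

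Abca6, highest of the ABCA members, and Abca3, known for loading surfactant lipid in lung, were not called. Abca6 had a 95% interval of −0.08 to 0.21 on the log2 scale and Abca3 one of −0.41 to 0.09. Abca3 shares 6.65% of its 100-base exon windows with an overlapping non-coding gene, D330041H03Rik.

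**Figure D3:**
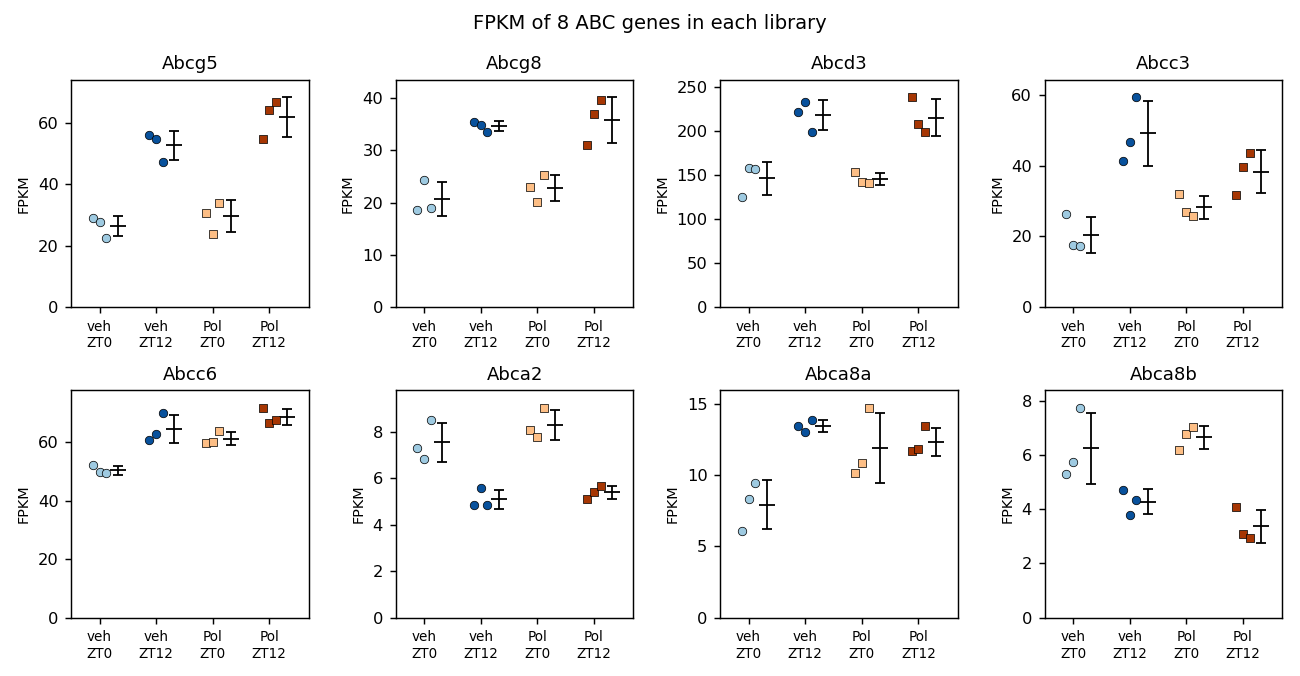
FPKM of 8 members in each library, with 3 points per group and the mean ± SD beside them, for vehicle (veh, circles) and Policaptil (Pol, squares) at ZT0 (light) and ZT12 (dark), with axes from 0. Abcg5, Abcg8, Abcd3 and Abca2 separate by time in both treatments, and in Abcc3 and Abca8a the step between times is smaller with Policaptil.

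**Figure D4:**
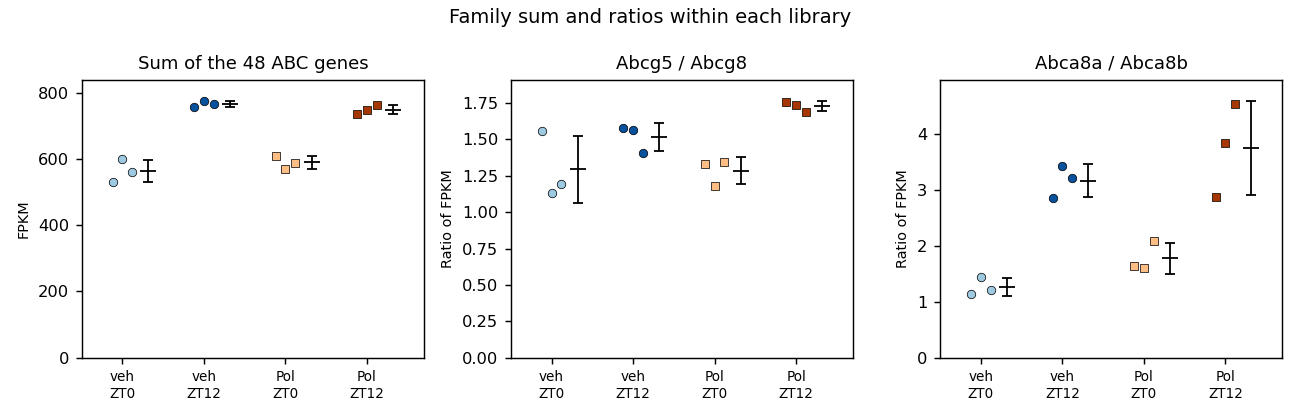
Sum of the 48 members in FPKM and the within-library ratios of Abcg5 to Abcg8 and of Abca8a to Abca8b, by group as in the plot of 8 members, with mean ± SD. The family sum and the Abca8a to Abca8b ratio separate the 6 ZT12 libraries from the 6 ZT0 libraries, while for Abcg5 to Abcg8 1 vehicle ZT0 library lies among the ZT12 libraries.

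Of the 5 tested members of drug and conjugate efflux, 4 were higher at ZT12 over both treatments (background 21.7%) and 0 lower (background 19.3%), and 3 of the 4, all but Abcc2, passed the adjustment. Abcc3 (chr11:94343295-94392997, minus strand), which exports glucuronides across the basolateral membrane into blood, had the largest log2 fold change of FPKM + 1 with vehicle of any tested member, while by the ratio of means Abcd2, a low gene that was not called, stood beside it (2.43 times). It was at 26.2, 17.5 and 17.3 FPKM at ZT0 and 41.4, 46.8 and 59.5 at ZT12 in vehicle, and at 31.9, 26.96 and 25.8 and 31.8, 39.6 and 43.8 in Policaptil. The vehicle times were far apart while the Policaptil times overlapped. The ZT12 mean was 2.42 times the ZT0 mean in vehicle (log2 fold change 1.24 ± 0.20, limma adjusted p = 0.0137) and 1.36 times in Policaptil (0.42 ± 0.14, limma adjusted p = 0.0880). Without Policaptil ZT0 replicate 3, ZT12 replicate 2 or ZT12 replicate 3 the Policaptil rise was not called (log2 fold change 0.33 to 0.40).

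Abcg2 (chr6:58584523-58695676, plus strand), the canalicular exporter of urate and many drugs, was at 25.6, 40.7 and 35.1 FPKM at ZT0 and 59.3, 45.3 and 44.2 at ZT12 in vehicle. In Policaptil it was at 36.9, 24.4 and 22.9 FPKM and 39.2, 43.5 and 44.5. Within each treatment the times did not overlap, although the highest ZT0 library, of vehicle, lay above the lowest ZT12 library, of Policaptil. The log2 fold change over both was 0.58 ± 0.13 (SE, limma adjusted p = 0.00659), and the call in vehicle alone ended without vehicle ZT0 replicate 1 or ZT12 replicate 1 (log2 fold change 0.37 to 0.42 in place of 0.55).

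Abcc6 (chr7:45967555-46030302, minus strand), whose loss leads to ectopic calcification, was at 52.0, 49.7 and 49.3 FPKM at ZT0 and 60.7, 62.9 and 69.8 at ZT12 in vehicle. With Policaptil the values were 59.8, 59.9 and 63.8 FPKM and 71.6, 66.3 and 67.5. The times were apart within each treatment, but the ZT0 libraries of Policaptil reached into the range of vehicle at ZT12. Its log2 fold change was 0.35 ± 0.08 (SE) in vehicle, 0.16 ± 0.07 in Policaptil and 0.25 ± 0.06 over both (limma adjusted p = 0.00537).

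Abcc2 (chr19:43782192-43840740, plus strand) was at 38.3, 61.3 and 45.0 FPKM at ZT0 and 52.7, 57.4 and 70.7 at ZT12 in vehicle, and at 45.1, 53.9 and 49.6 and 49.995, 61.1 and 68.1 in Policaptil. Times overlapped in both treatments. Its log2 fold change of 0.29 ± 0.12 (SE) was called over both treatments with a limma adjusted p of 0.0785, and the call ended without any of 5 libraries (vehicle ZT0 replicate 1 or 3, vehicle ZT12 replicate 3, Policaptil ZT0 replicate 1, Policaptil ZT12 replicate 3), with values from 0.22 to 0.27. Abcc10, a multidrug exporter with a mean of 4.84 FPKM, was not called (95% interval −0.04 to 0.24).

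Abcc9 (chr6:142587862-142702315, minus strand), the SUR2 subunit of K-ATP channels known from muscle and pericytes, was at 1.71, 0.999 and 2.12 FPKM at ZT0 and 0.991, 1.10 and 1.80 at ZT12 in vehicle, with overlap. In Policaptil it fell from 2.12, 1.92 and 1.92 FPKM to 1.42, 1.498 and 1.09, without overlap (log2 fold change −0.36 ± 0.10, limma adjusted p = 0.0574). Over both treatments the log2 fold change was −0.27 ± 0.12 (limma adjusted p = 0.104), and that call was lost, with values from −0.28 to −0.21, when any single library was left out other than replicate 2 of vehicle at ZT0 or replicate 3 of vehicle at ZT12. Its pore partner Kcnj8 had a mean of 0.956 FPKM and was not tested, and Kcnj11 and Abcc8, the pair of the pancreatic beta cell, were listed at 0 in all libraries.

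Markers of some other cell types were also lower at ZT12. All 5 endothelial markers tested were lower in both treatments, beside 13.0% of all genes tested in vehicle and 13.4% in Policaptil. The summed level of the endothelial list of 7 was 25.8 to 35.1 FPKM at ZT0 and 13.0 to 22.2 at ZT12 in vehicle. In Policaptil it was 33.2 to 41.5 FPKM at ZT0 and 20.5 to 22.5 at ZT12. Of 7 stellate cell and pericyte markers tested, 3 were lower in vehicle and 7 in Policaptil, with sums of 52.4 to 74.2 FPKM at ZT0 against 50.1 to 73.1 at ZT12 in vehicle and 77.7 to 88.8 against 44.0 to 60.6 in Policaptil. No marker of these endothelial or stellate cell lists was at 0 in all libraries. Over both treatments 1 of 6 macrophage, 1 of 4 cholangiocyte and 1 of 3 muscle markers tested were lower, beside 19.3% of all genes. The 1 fat cell marker tested was higher, beside 21.7%. The part of any of these cell types in the lower levels of Abca2, Abca7, Abca8b and Abcc9 was not tested.

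Among the half-transporters of peroxisomes and lysosomes, Abcd3 and Abcd4 rose. Abcd3 (chr3:121758774-121815302, minus strand), which carries branched-chain fatty acids and bile acid intermediates into peroxisomes, was at 125, 158 and 157 FPKM at ZT0 and 222, 233 and 199.5 at ZT12 in vehicle. In Policaptil it was at 154, 143 and 142 FPKM and 239, 209 and 199. Every ZT12 library was above every ZT0 library, and the ZT12 mean was 1.48 times the ZT0 mean (log2 fold change 0.57 ± 0.07, SE, limma adjusted p = 1.88e-04).

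Abcd4 (chr12:84601464-84617413, minus strand), which serves vitamin B12 release from lysosomes, was at 5.93, 5.30 and 5.01 FPKM at ZT0 and 7.33, 6.58 and 7.67 at ZT12 in vehicle, and at 5.64, 5.56 and 5.44 and 8.07, 8.10 and 8.32 in Policaptil. The times were apart, with a log2 fold change of 0.42 ± 0.06 (SE, limma adjusted p = 1.90e-04).

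Abcd2, a peroxisomal half-transporter of fatty acyl-CoA, was the most variable tested member, from 0.215 FPKM in vehicle ZT0 replicate 2 to 3.76 in vehicle ZT12 replicate 3. Libraries of every group overlapped, and its 95% interval for time reached from −0.45 to 1.14 on the log2 scale. Its mean went from 1.14 ± 1.44 FPKM (SD, n = 3) to 2.76 ± 1.44 in vehicle and from 2.03 ± 1.10 to 1.57 ± 0.891 in Policaptil, and neither step was called. In vehicle the step was called by the Cyber-T version and without vehicle ZT0 replicate 1 or ZT12 replicate 1.

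The mitochondrial half-transporters moved little. Abcb8 (chr5:24393663-24410054, plus strand), a mitochondrial inner membrane protein linked to iron handling, was at 17.3, 15.8 and 16.3 FPKM at ZT0 and 19.2, 20.1 and 17.5 at ZT12 in vehicle, and at 17.1, 17.1 and 15.8 and 18.8, 16.6 and 18.3 in Policaptil. The vehicle times were apart and the Policaptil times overlapped. Its log2 fold change of 0.14 ± 0.05 (SE) was called over both treatments with a limma adjusted p of 0.0647, and not without vehicle ZT12 replicate 2 (0.12).

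Abcb6, a porphyrin-linked transporter, and Abcb10, known for haem synthesis in red cell precursors, were not called over both treatments. Their 95% intervals on the log2 scale were −0.08 to 0.23 and −0.24 to 0.02. Abcb6 shares 45.2% of its 100-base exon windows with an overlapping gene model on the same strand, Gm29253, and its level is uncertain where reads could be given to either.

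Of the translation ATPases, Abcf1 (chr17:35956819-35969761, minus strand), which binds initiation factor eIF2 and the ribosome, rose. It was at 19.7, 22.7 and 19.8 FPKM at ZT0 and 27.3, 28.6 and 27.04 at ZT12 in vehicle, and at 23.7, 19.6 and 22.4 and 25.9, 27.4 and 30.9 in Policaptil. All ZT12 libraries were above all ZT0 libraries, with a log2 fold change of 0.37 ± 0.06 (SE, limma adjusted p = 0.00114). Abce1, which splits ribosomes after termination, and Abcf2 and Abcf3 were not called, with 95% intervals of −0.21 to 0.18, −0.04 to 0.23 and −0.19 to 0.04.

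The treatment question was asked at each time with 3 mice against 3, where exact permutation cannot go below p = 0.1. At ZT0 3 of the 27 tested members were called (background 9.23%), all 3 higher with Policaptil (background 3.42% higher and 5.81% lower): Abcc6, Abca8a and Abcc3. None had an adjusted p under 0.05, and neither had any of the 9806 genes by limma, while a version of Cyber-T, the variance-moderated test of the study, gave 69 genes. Abcc6 was at 50.3 ± 1.47 FPKM (SD, n = 3) in vehicle and 61.1 ± 2.29 in Policaptil, and no Policaptil library was below 59.8 or vehicle library above 52.0. Its log2 fold change was 0.28 ± 0.08 (SE, limma adjusted p = 0.469), and the Cyber-T version did not call it.

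Abca8a was at 7.92 ± 1.73 FPKM in vehicle and 11.9 ± 2.46 in Policaptil at ZT0, also without overlap (log2 fold change 0.53 ± 0.19, limma adjusted p = 0.506). That call ended without vehicle ZT0 replicate 1 or Policaptil ZT0 replicate 3 (0.37 to 0.38). Abcc3 was at 20.4 ± 5.11 against 28.2 ± 3.26 FPKM, with vehicle ZT0 replicate 1 inside the Policaptil range (log2 fold change 0.47 ± 0.17, limma adjusted p = 0.521), and the call ended without vehicle ZT0 replicate 2 or 3 or Policaptil ZT0 replicate 1 or 2 (0.37 to 0.50), and in a fit with no minimum FPKM. Of 6 macrophage markers tested, 3 (Vsig4, Cd68 and Clec4f) were lower with Policaptil at ZT0, beside 5.81% of all genes. The summed level of 9 macrophage markers was 42.5 to 49.7 FPKM in vehicle and 27.01 to 45.3 in Policaptil. Of 5 endothelial markers tested, 2 (Kdr and Cdh5) were higher, beside 3.42% of all genes. The summed level of the endothelial list of 7 overlapped, with 25.8 to 35.1 FPKM in vehicle and 33.2 to 41.5 in Policaptil. Of 7 stellate cell and pericyte markers tested 1 was higher. Lower were 1 of 4 cholangiocyte and 1 of 7 hepatocyte markers tested. Of 5 fat cell markers 1, Cfd, was tested and was lower (log2 fold change −1.49 ± 0.59, SE), with a summed level of 2.85 to 7.97 FPKM in vehicle and 0.351 to 4.99 in Policaptil and 2 of the 5 at 0 in all libraries. Their part in these results was not tested.

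At ZT12 none of the 27 was called by limma at an unadjusted p under 0.05 (background 6.74%), and none of the 9806 genes had an adjusted p under 0.05 by limma, against 23 by the Cyber-T version. At an unadjusted p the latter called 2 members, Abcc3 and Abcd2. Without vehicle ZT12 replicate 1 limma called 4, with Abcb6, Abcc3 and Abcd2 among them, and without Policaptil ZT12 replicate 3, the library with muscle RNA, 1 (Abcc3). Abcc3 was at 49.2 ± 9.29 FPKM in vehicle and 38.4 ± 6.05 in Policaptil (log2 fold change −0.35 ± 0.16, 95% interval −0.73 to 0.04). The intervals of Abcg5 (−0.02 to 0.48) and Abcg8 (−0.19 to 0.27) held 0, but Abcg5 was called under median-ratio scaling and without Policaptil ZT12 replicate 1.

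Over both times 1 member was called (background 10.1%), Abcc6, which was higher with Policaptil (background for higher genes 3.82%). Its log2 fold change was 0.18 ± 0.06 (SE, limma adjusted p = 0.362, exact permutation of treatments within times p = 0.0150). The call was kept without any single library. At ZT12 alone, however, Abcc6 was not called (log2 fold change 0.09 ± 0.08, 95% interval −0.10 to 0.27), and its treatments overlapped. For Abcd3, the highest member, the treatment estimate was −0.01 ± 0.07 (SE) with a 95% interval of −0.17 to 0.15, and for Abca1 it was −0.07 ± 0.11 with −0.30 to 0.16.

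The time step differed between treatments (interaction, Policaptil minus vehicle) at p under 0.05 for 2 members (background 6.63%), both with the smaller step in Policaptil (background for that direction 2.80%). For Abcc3 the difference was −0.82 ± 0.26 (SE) on the log2 scale (limma adjusted p = 0.597, exact permutation p = 0.0250). For Abca8a it was −0.65 ± 0.21 (limma adjusted p = 0.613, exact permutation p = 0.0100). These permutations exchanged treatments within times. They test for no treatment effect at either time, which is a stricter assumption than equal time steps. In both genes Policaptil means were above vehicle at ZT0 and below at ZT12. Neither passed the adjustment, and 2 of 27 is 7.41%. For Abcg5 the interaction was 0.08 ± 0.20 with a 95% interval of −0.36 to 0.51.

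**Figure D5:**
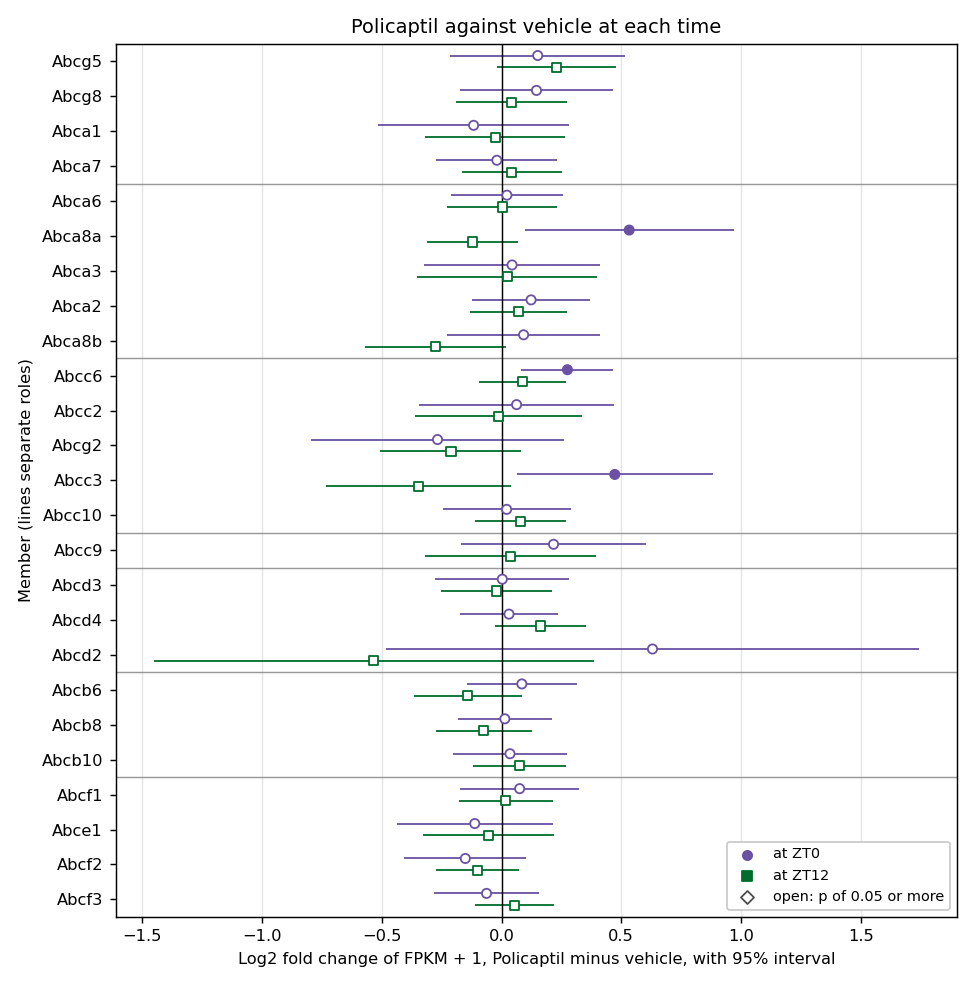
Log2 fold change of FPKM + 1 between Policaptil and vehicle for 25 of the 27 tested members at ZT0 (purple circles) and ZT12 (green squares), with 95% intervals from limma, filled where p was under 0.05. The filled points are Abca8a, Abcc6 and Abcc3 at ZT0, and no point at ZT12 is filled.

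The 21 members under the minimum had means up to 0.983 FPKM. At 0 in all 12 libraries were 5 of them, Abca12, Abca13, Abca16, Abcb5 and Abcc8, and 11 had a mean under 0.1 FPKM, those 5 included. The highest were Abcb9, a lysosomal peptide transporter (0.983 FPKM), and Abcc5, an exporter of cyclic nucleotides (0.640 FPKM). Abca4, known from photoreceptors, had a mean of 0.0196 FPKM and Abcg3, a rodent relative of Abcg2, one of 0.200 FPKM.

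Abcb1a, which encodes P-glycoprotein, was outside the rule for naming and was chosen after its values were seen. It was at 0.242, 0.0995 and 0.134 FPKM at ZT0 and 0.298, 0.840 and 0.902 at ZT12 in vehicle, and at 0.195, 0.137 and 0.269 and 0.489, 0.730 and 0.413 in Policaptil. All ZT12 libraries were above all ZT0 libraries, at levels where few reads set the value. Its close copy Abcb1b was at 0.293 ± 0.0384 FPKM (SD, n = 3) at ZT0 and 0.223 ± 0.0355 at ZT12 in vehicle, and at 0.135 ± 0.0174 and 0.177 ± 0.0524 in Policaptil. The treatments of Abcb1b did not overlap at ZT0. In a fit with no minimum FPKM it was called, unadjusted, for treatment at ZT0, for treatment over both times and for the interaction. Abcb1b too was outside the rule for naming, and at its mean of 0.207 FPKM few reads set the value. No share over all genes is given here for that fit or that lack of overlap, so nothing is read from these calls. Abcb1a shares 13.4% of its 100-base exon windows with other genes, Abcb1b foremost. Reads from these windows would be lost where only unique reads were kept. Their split between genes would be uncertain where other reads were assigned.

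Genes that work with the family were counted from lists. Of 13 peroxisomal partners of the ABCD half-transporters, all tested, 10 were higher at ZT12 over both treatments (background 21.7%) and 0 lower (background 19.3%). Their median log2 fold change was 0.36. The thiolase gene Acaa1b had 0.92 ± 0.11 (SE), the peroxisome division gene Pex11a 1.19 ± 0.14 and the membrane protein receptor Pex19 0.36 ± 0.06. Abcd3 rose beside them, and so did Abcd4, which serves lysosomes, while Abcd2 was not called over both treatments.

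Of 12 transcription factors known to act on ABC genes, 7 were higher at ZT12 and 3 lower. The xenobiotic receptors Nr1i3 (CAR) and Nr1i2 (PXR) had log2 fold changes of 1.01 ± 0.12 and 0.90 ± 0.11 (limma adjusted p = 1.01e-04 and 1.16e-04). Nr1h4 (FXR) had 0.53 ± 0.07, and Nr5a2 (LRH-1), which acts on Abcg5 and Abcg8, fell by 0.38 on the log2 scale. Background shares were 21.7% for higher and 19.3% for lower genes.

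Of 10 LXR targets outside the family 5 were higher at ZT12 and 2 lower. For the lists of this paragraph the background shares were 21.7% for higher and 19.3% for lower genes. Cyp7a1, the rate-limiting enzyme of bile acid synthesis, had a log2 fold change of 1.96 ± 0.30 (SE, limma adjusted p = 5.62e-04), and Lpl, the lipase of triglyceride-rich particles, one of −0.67 ± 0.11. Of 8 CAR and PXR targets tested 4 were higher and 0 lower, led by Por, which feeds electrons to cytochromes P450 (2.27 ± 0.21). Of 8 NRF2 targets tested 2 were higher (Gsta2 and Nqo1) and 2 lower (Gclc and Txnrd1). Abcc2, Abcc3 and Abcg2 are known targets of these xenobiotic and stress pathways.

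Of 14 genes of haem and iron-sulphur synthesis 6 were higher and 3 lower at ZT12. The background shares, also for the time counts that follow, were 21.7% for higher and 19.3% for lower genes. Alas1, which sets the rate of haem synthesis, had a log2 fold change of 2.60 ± 0.33 (SE, limma adjusted p = 1.53e-04), while the mitochondrial ABCB members held 1 called gene of 4. Of 10 tested partners in sterol and phospholipid handling 3 were higher and 2 lower, among them Atp8b1, a canalicular phospholipid flippase (−0.43 ± 0.06). Of 6 uptake carriers 2 were higher, with Slc10a1, the bile salt importer, at 0.58 ± 0.10. Of 7 tested translation partners 0 were higher and 1 was lower (Pelo, −0.31 ± 0.10), and of 2 tested ABC genes with other symbols 1 was higher (Tap2, 0.22 ± 0.06) and 1 lower (Tap1, −0.32 ± 0.12). For treatment over both times the background was 3.82% higher with Policaptil and 6.28% lower. Peroxisomal partners held 1 higher and 3 lower, transcription factors and LXR targets 2 and 0 each. CAR and PXR targets and ABC genes with other symbols held 1 and 0 each. Haem and sterol lists held 1 of each, and NRF2 targets, uptake carriers and translation partners 0. At ZT12 alone 1 NRF2 target was higher and 3 lower (background 3.07% and 3.67%). None passed the adjustment.

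RefSeq windows of 300 bases around the start (250 before, 50 after; GRCm38.p6) were found for 19 of the 27 tested members, and both strands were searched. The E-box CACGTG was in the windows of 4 members (Abca1, Abca8a, Abca8b and Abcf1), beside 8.09% of 27025 genes. The D-box TTATGTAA was in 0 members, beside 1.11% of genes. The nuclear receptor half-site AGGTCA was in 4 (Abcb6, Abcc10, Abcc2 and Abcg2), beside 18.1%, and its direct repeat with a gap of 4 bases (DR4), which contains the half-site, was in 0, beside 0.0148%. Of the 4 members with an E-box 3 were called for time (Abcf1 and Abca8a higher, Abca8b lower), beside 15 of the 27 tested members and 41.0% of all genes, and with 4 members nothing is read from this. A match is a run of letters and no measured binding.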

How the data were processed

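RNA-seq of 12 livers was analysed, 3 in each of the 4 groups given by the labels. The deposited data are 1 table, in which the authors gave each gene an FPKM value for every library. The methods describe ELAND alignment to mm10, unique reads only, and call the unit RPKM, while the submitters' processing notes name TopHat and Cuffnorm. No counts or columns of the authors' comparisons were used. For 289 repeated symbols only the row of highest mean was used. Values were compared on the scale log2(FPKM + 1), leaving out genes whose mean was under 1 FPKM, with limma 3.58.1 in R 4.3.3 (lmFit, eBayes with trend), two-sided, pairwise fits on 6 samples and joint fits on 12, with Benjamini-Hochberg adjustment over 9806 genes, and with exact permutation within blocks (Python 3.11.15). The fits were tested on simulated data. Without counts, the precision rests on 3 mice per group.

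Members, roles and lists were chosen with earlier results of these data known. Of the 27 tested members 25 were named (the others, and 1 list gene, are not reported here), with values per library for those with p under 0.05 or the 3 highest means. List genes were named by smallest p, at most 4 a list, and the markers of other cell types by their calls. Alternatives were another pseudocount (0.1), no minimum, a minimum of 5 FPKM, no trend, median-ratio or quantile scaling, a replicate block, a version of Cyber-T (window 101, prior weight 10), sums of repeated symbols, a joint fit, and leaving out each library. Gene positions are from GENCODE vM21, promoters from RefSeq (GRCm38.p6).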

Additional observations from a re-analysis of the deposited data

Results flagged for a closer look

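The step from ZT0 to ZT12 differed between treatments for 2 members by a test of the difference itself. The step of Policaptil minus that of vehicle was −0.82 on the log2 scale for Abcc3 and −0.65 for Abca8a. Both kept p under 0.05 in limma under every alternative run except adjustment over all genes, where the adjusted p was 0.597 for Abcc3 and 0.613 for Abca8a, and without any single library. The difference of Abcc3 ranged in size from 0.68 to 1.01 and that of Abca8a from 0.49 to 0.78. Among all genes tested 6.63% had p under 0.05 for this difference and 0 passed adjustment with limma, while the Cyber-T version adjusted the same way called 77 genes. No explanation was tested.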

How the results depend on the processing

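Of 45 results for single members, 0 changed sign and 32 kept their call under all alternatives and all left-out libraries, adjustment apart, which ended 20. Calls of single members also ended with Cyber-T (Abca7 for time in either treatment alone, Abcb8 for time over both, Abcc6 for treatment at ZT0), with quantile normalization (Abcc2 and Abcc9 for time over both), with the joint fit (Abcc9 in Policaptil), with no minimum FPKM (Abcc3 at ZT0) and with the replicate block (Abca7 and Abcg2 in vehicle). With adjusted p, members called fell to 8 for time in vehicle, 6 for time in Policaptil, 0 for treatment at ZT0, 0 for the interaction and 0 for treatment over both times. For treatment at ZT12, 3 were called with no minimum FPKM, 1 with median-ratio scaling, 3 with the replicate block and 2 with Cyber-T, in place of 0. Cyber-T called 4 for the interaction. For treatment over both times 2 were called with no minimum, 2 with median-ratio scaling, 2 with quantile normalization and 3 with Cyber-T, in place of 1. The cause of these shifts was not tested.

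With 1 library left out, calls ranged from 10 to 14 for time in vehicle, 9 to 11 for time in Policaptil, 13 to 17 for time over both, 2 to 3 for treatment at ZT0, 0 to 4 at ZT12, 2 to 5 for the interaction and 1 to 5 for treatment over both times. The 5 for the interaction came without vehicle ZT12 replicate 1, and the 5 for treatment over both times without vehicle ZT0 replicate 1. Where a group was left with 2 libraries, limma pooled the spread. Replicate numbers are shared between groups, and deviations of same-numbered libraries correlated at −0.279 to 0.341, over 0.1 in 4 of 18 pairs. With 3 libraries per group this check cannot settle whether the numbers pair the samples, and the main fits treated them as unpaired. Scaling moved the median log2 fold change of all genes by at most 0.0225. FPKM give no counting error, and members under 1 FPKM were not tested.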
